A study of Mus musculus and Rattus norvegicus with 30 samples.

Results

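The data are RNA counts from the fifth lumbar (L5) dorsal root ganglion (DRG) of male Wistar rats, the cluster of sensory nerve cell bodies that sends its fibres into the L5 spinal nerve. The 4 libraries called spinal nerve transection (SNT) come from rats whose L5 nerve on the left side had been closed with a ligature and severed, so that ganglia of adjoining levels kept their nerves. The 4 sham libraries come from rats that had the same surgical approach without ligature or cut. These 8 libraries are part of a series of 28 libraries with counts, the rest of which come from mice. Each rat library pooled the ganglia of 3 animals taken 21 days after surgery, so differences between single animals cannot be seen, and the counts come from polyadenylated RNA. The members described are annotated genes, of which the count table listed 32623. Of these, 15587 had a count in at least 1 library, and 17036 stood at 0 in all 8 libraries and were treated as not counted. Genes of wide use in sensory neurons, such as Atf3, Gap43, Nefl, Trpv1 and Piezo2, are among the 17036, so nothing is said about them. Positions are not given because no rat genome or annotation was used here.

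The DRG holds several kinds of sensory neuron. Small peptidergic nociceptors release calcitonin gene-related peptide and substance P, small nonpeptidergic nociceptors carry Mrg receptors and the purine receptor P2rx3, and large neurons with thick myelin report touch and limb position. Each cell body is wrapped by satellite glial cells, and fibres, Schwann cells, vessels, connective tissue and resident macrophages share the ganglion. Cutting a spinal nerve severs the peripheral axons of nearly all neurons of that ganglion. It is known for setting off a programme of regrowth genes, for changing the peptides and ion channels that injured neurons make, and for drawing immune cells into the ganglion. SNT is used as a model of neuropathic pain.

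Library totals ran from 11.95 M to 17.89 M counts, and a floor of 3 counts stood between 0.168 and 0.251 CPM (counts scaled to an equal library total). On the first principal component, which held 72.7% of the variance of the 5000 most variable features, sham libraries 1 to 3 lay between -56 and -43.5 and SNT libraries 2 to 4 between 37.8 and 59.3. Sham library 4 lay at -9.28 and SNT library 1 at 1.22, so these 2 libraries stood between the groups. Where the call of a gene described at length rests on them, its value without both is also given. Of the 201 genes named with a value, 153 passed with all 8 libraries and still passed without both, and 22 of the other 48 passed without both alone. The 2 libraries were left out because of their place between the groups, so the higher number of calls without them follows in part from that choice. The tissue label was checked against genes of DRG neurons. Prph, the intermediate filament of peripheral neurons, had 3550 to 5040 CPM in sham and 3460 to 5450 CPM in SNT libraries.

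To ask which genes change in the ganglion when its nerve is cut, surgery was compared with edgeR's quasi-likelihood test over 13690 features, and a gene is said to have risen or fallen where its Benjamini-Hochberg adjusted p was under 0.05. A log2 change is always SNT over sham from that fit, with its standard error (SE), and a level is always in CPM. Of 10199 annotated genes tested, 3118 (30.6%) passed, with 1564 (15.3%) higher and 1554 (15.2%) lower after SNT, and 4800 had an unadjusted p under 0.05. The SNT and sham libraries did not overlap for 2986 genes (29.3%). Changes of 2-fold or more were more often falls, with 336 higher and 580 lower among the called genes. Calls depended on single libraries. Leaving out 1 library at a time gave between 1166 calls without sham library 3 and 4165 calls without SNT library 1, and 1072 genes passed in all 8 of these leave-one-out fits. Without sham library 4 and SNT library 1, 4981 of 10263 annotated genes (48.5%) passed, 2524 of them higher and 2457 lower. The labels say that each library is a pool of animals but not how the pools were made, so p-values measure only the spread between these 8 libraries. In a bulk library fewer cells of a type and less RNA per cell cannot be told apart.

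The genes of largest rise that did not overlap between groups belong to no single function. Slc30a3, the transporter that loads zinc into synaptic vesicles, had 0.166, 0.305, 0.214 and 0.847 CPM in sham libraries 1 to 4 and 5.5, 8, 9.06 and 7.28 CPM in SNT libraries 1 to 4. Its log2 change was 4.22 (SE 0.396, edgeR adjusted p = 0.00502), and all 4 SNT libraries lay above the highest sham library. Lce1f, a gene of the cornified envelope of skin, had no more than 3 counts in any sham library and 1.61 to 3.87 CPM after SNT. Its group mean after SNT was at least 11.7-fold higher than a floor of 3 counts per library. Mmp9, a gelatin-cleaving matrix protease, had 1.58, 1.95, 1.5 and 1.43 CPM in sham libraries and 3.86, 3.05, 164 and 4.19 CPM in SNT libraries. Its log2 change of 4.75 rested on SNT library 3 and was 1.20 without it, and the call was kept in 5 of the 8 leave-one-out fits. The matrix genes Acan, Mmp12 and Mmp13, named after their values were seen, were also highest in SNT library 3, at 21.3, 68.3 and 37.7 CPM, and none of the 3 passed the test.

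The other large rises were Pla2g4c (log2 change 3.33), a phospholipase that frees arachidonic acid, Gpr101 (3.19), an orphan receptor, the peptide gene Vip (2.85), Draxin (2.47), a secreted axon guidance protein, Hsd3b1 (2.44), an enzyme of steroid synthesis, and Clec2d (2.43), a lectin-like ligand. Among them Hsd3b1 and Clec2d lay at 2.87 and 1.24 CPM in sham library 4 and at no more than 0.332 CPM in sham libraries 1 to 3. The groups do not overlap for any of these genes because the choice of genes required it.

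Among the largest falls, Hapln1, the protein that links hyaluronan to proteoglycans in the matrix around neurons, had 104, 85.5, 67 and 41.4 CPM in sham libraries and 13.2, 0.49, 0.778 and 0.852 CPM in SNT libraries. Its log2 change was -4.30 (SE 0.89, edgeR adjusted p = 0.0129) with all 8 libraries and -6.91 without sham library 4 and SNT library 1. Car12, a membrane-bound carbonic anhydrase, had 3.06 to 4.94 CPM in sham libraries and 0.759, 0, 0.111 and 0 CPM in SNT libraries (log2 change -4.19). In both genes SNT library 1 was the highest of its group. It lay below every sham library, as the choice of these falls required. The remaining falls were Plscr5 (log2 change -3.92), Mrgprb4 (-3.69), a receptor of unmyelinated touch fibres, Gsta3 (-3.65), a glutathione transferase, Iapp (-3.63), which encodes the peptide amylin, Otof (-3.61), a calcium sensor of vesicle release, the uncharacterised LOC108350059 (-3.60), Igsf21 (-3.58), an adhesion protein, and Slc46a2 (-3.47). Among these, Mrgprb4 and LOC108350059 kept their call in 2 of the 8 leave-one-out fits, with log2 changes of -6.97 and -9.80 without SNT library 1, and Iapp and LOC108350059 did not pass with DESeq2 (adjusted p = 0.0592 and 0.186).

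Genes were then read by function, in 46 lists. Shares of called members are set beside the 15.3% and 15.2% of all annotated genes that rose and fell. For counts without sham library 4 and SNT library 1, the shares to set beside them are 2524 and 2457 of 10263. Lists share some genes, and their members were not tested as sets. The lists with the largest shares of falls were nonpeptidergic nociceptor markers with 7 of 8 tested members, large-diameter neuron markers with 8 of 10, sodium channel subunits with 8 of 13 and potassium channel subunits with 30 of 51. Leaving out 1 library gave 1 to 7, 6 to 9, 4 to 10 and 17 to 36 called members in these lists. The lists with the largest shares of rises were immediate early genes with 4 of 6, interleukin and tumour necrosis factor signalling with 21 of 33, Schwann cell and myelin genes with 10 of 17 and regeneration-associated transcription factors with 6 of 11, and leaving out 1 library gave 2 to 4, 6 to 29, 6 to 14 and 2 to 7 called members.

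**Figure D1:**
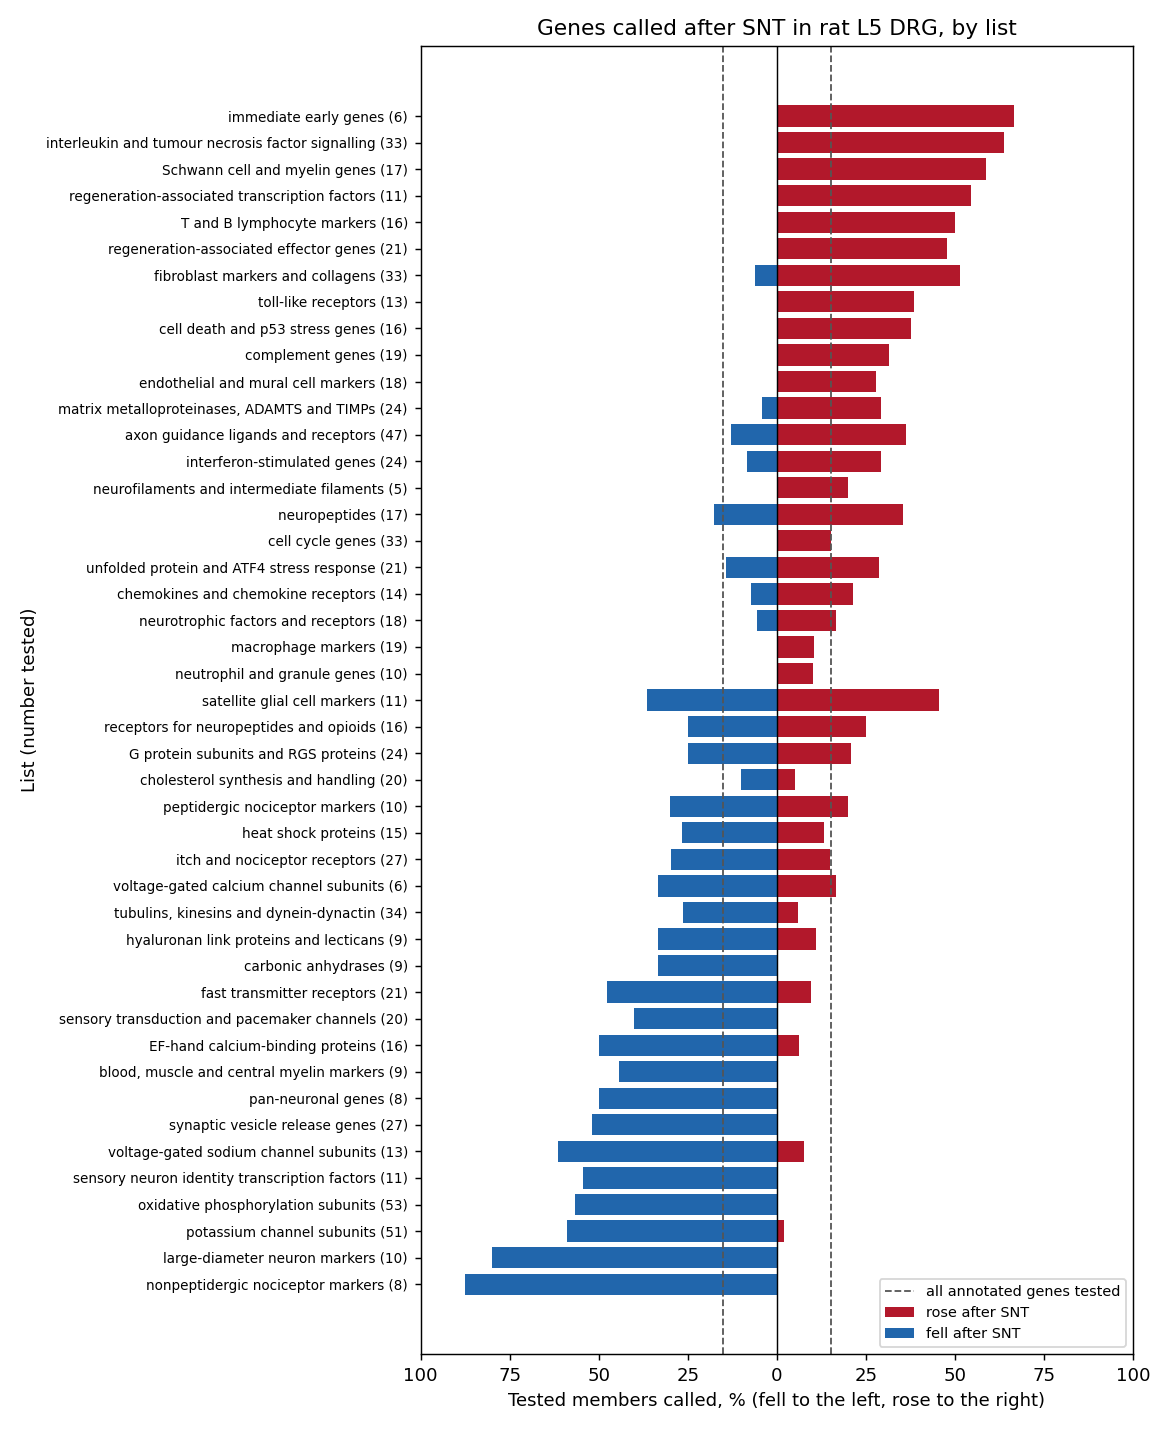
Share of tested members that rose (right) or fell (left) after SNT in each list of at least 5 tested members, in percent, with the number tested beside each name. Dashed lines mark the 15.3% and 15.2% of all annotated genes tested. Nonpeptidergic nociceptor markers, of which 87.5% fell, stand at the bottom and immediate early genes, of which 66.7% rose, at the top.

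Neuropeptides are the slow transmitters of sensory neurons, and the list split. Of 17 tested, 6 rose and 3 fell, while the median log2 change over the list was -0.34. Vip (ENSRNOG00000018808), vasoactive intestinal peptide, had 13.4, 10.4, 11.7 and 41.4 CPM in sham libraries and 106, 127, 144 and 180 CPM in SNT libraries, a log2 change of 2.85 (SE 0.427, edgeR adjusted p = 0.0104). Gal (ENSRNOG00000015156), galanin, had 82.7, 90.1, 83.4 and 284 CPM in sham and 407, 585, 426 and 633 CPM in SNT libraries (log2 change 1.93, SE 0.406, edgeR adjusted p = 0.0131). For both peptides sham library 4 stood at over 3 times the other sham libraries and below every SNT library. Cck, cholecystokinin, had 2.07, 1.95, 1.28 and 10.5 CPM in sham and 13.3, 22.3, 23.8 and 25.6 CPM in SNT libraries (log2 change 2.41), with the same order. Ucn (log2 change 1.98), urocortin, Pdyn (1.63), the precursor of dynorphin, and Adcyap1 (1.14), the precursor of PACAP, rose as well. Adcyap1 overlapped between groups, with 268 CPM in sham library 4 and 261 CPM in SNT library 2.

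The peptides that mark uninjured nociceptors lay lower in most SNT libraries. Calca (ENSRNOG00000011130), which encodes calcitonin gene-related peptide, had 936, 1200, 1170 and 781 CPM in sham and 868, 36.3, 59.8 and 206 CPM in SNT libraries. SNT library 1 lay among the sham libraries, and the log2 change of -1.80 did not pass (SE 0.817, edgeR adjusted p = 0.121). Without sham library 4 and SNT library 1 it was -3.45 (edgeR adjusted p = 0.00102). Tac1, the precursor of substance P, had 295, 322, 343 and 219 CPM in sham and 244, 40.5, 45.3 and 90.4 CPM in SNT libraries (log2 change -1.49, edgeR adjusted p = 0.0521), again with SNT library 1 inside the sham range. Its log2 change was -2.44 without sham library 4 and SNT library 1 (edgeR adjusted p = 0.000177). Nmb (log2 change -2.57), neuromedin B, Scg2 (-2.20), secretogranin, and Calcb (-1.74), the second calcitonin gene-related peptide, fell, and each of them kept its call in 2 of the 8 leave-one-out fits. Penk, Crh, Nppb, Pomc, Nts and Cartpt did not pass, with log2 changes of -1.41, -1.13, -0.51, -0.34, 0.07 and 0.33. Without sham library 4 and SNT library 1, 6 neuropeptides rose and 7 fell.

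Receptors for these peptides and for opioids moved both ways, 4 of 16 up and 4 down. Cckbr, a receptor for cholecystokinin and gastrin, had 2.32, 3.54, 2.56 and 9.32 CPM in sham and 18.6, 26.7, 20 and 28.9 CPM in SNT libraries (log2 change 2.39, SE 0.405, edgeR adjusted p = 0.0107). Oprm1, the mu opioid receptor at which morphine acts, had 25.4, 35.1, 32.8 and 17.3 CPM in sham and 12.8, 4.03, 3 and 5.24 CPM in SNT libraries (log2 change -2.15, SE 0.423, edgeR adjusted p = 0.0119). Neither gene overlapped between the groups, and both passed in all 8 leave-one-out fits. The somatostatin receptor Sstr1 (log2 change -2.11) and the nociceptin receptor Oprl1 (-0.69), the member with the most counts, fell too.

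**Figure D2:**
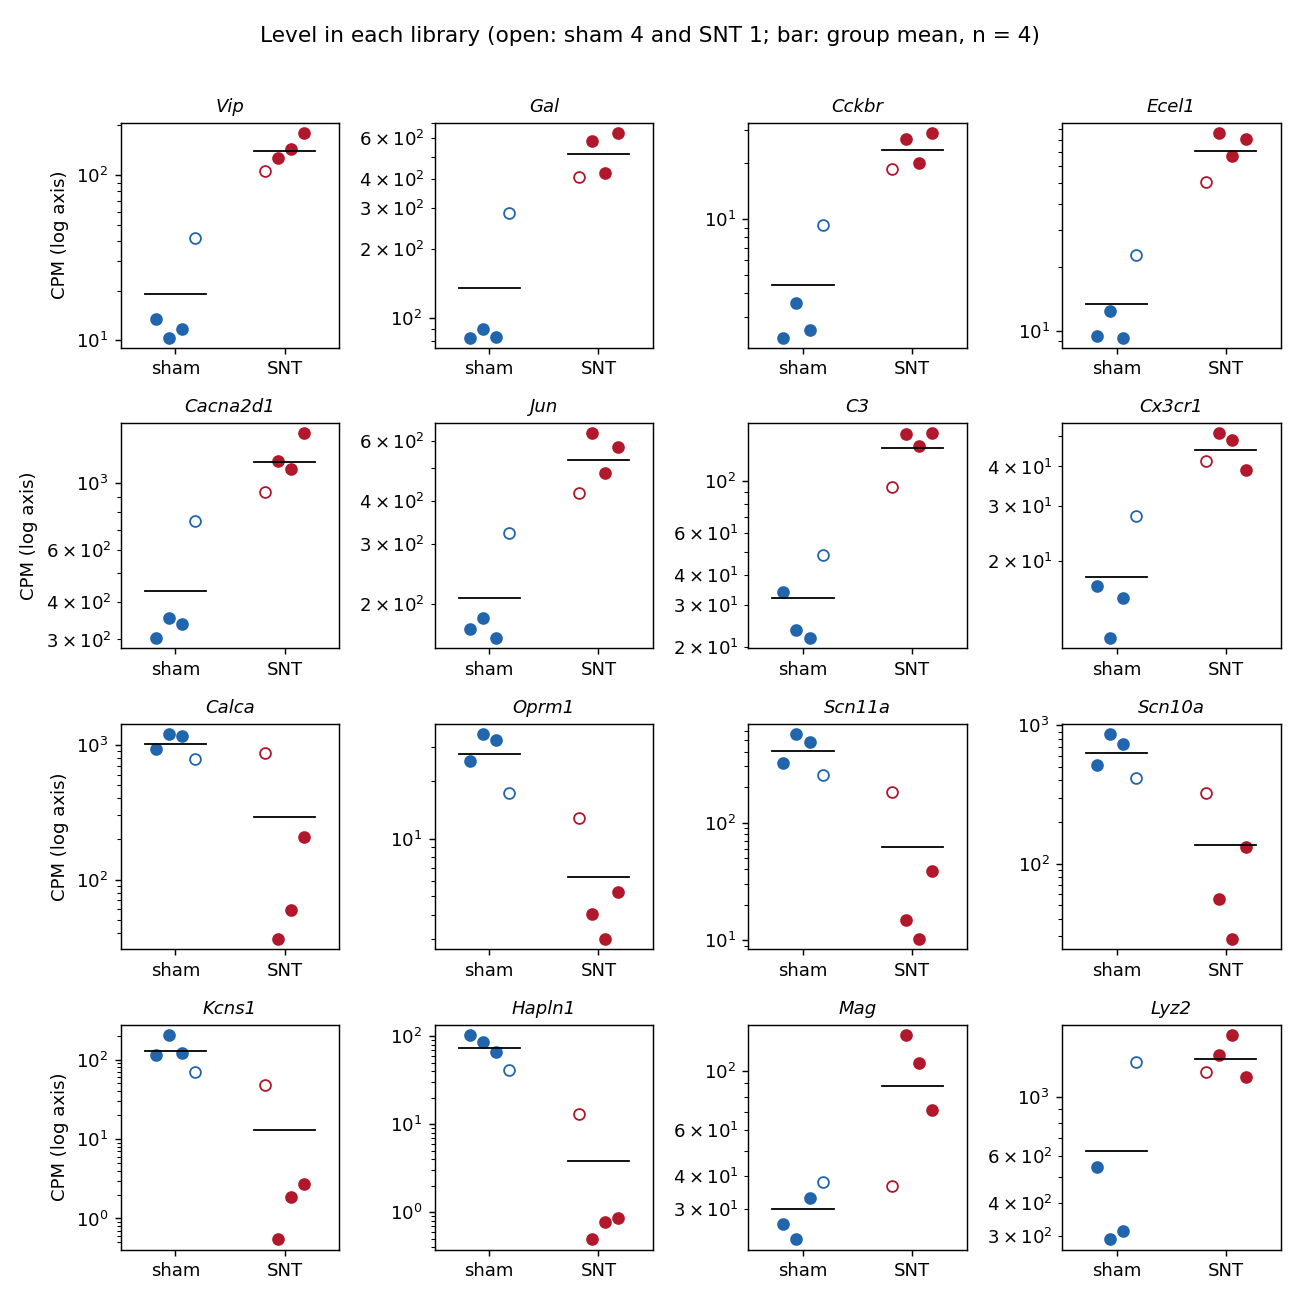
Level in CPM on a log axis of 16 genes named in the text in each of the 4 sham and 4 SNT libraries, with the group mean as a bar. Open symbols are sham library 4 and SNT library 1, which lie nearest to the other group in most panels, and the groups overlap in the panels of Calca, Mag and Lyz2.

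Voltage-gated sodium channels carry the action potential, and 8 of 13 tested subunits fell while 1 rose. Scn11a (ENSRNOG00000032884), a channel of small nociceptors that resists tetrodotoxin, had 319, 563, 478 and 253 CPM in sham and 182, 15, 10.3 and 38.8 CPM in SNT libraries (log2 change -2.71, SE 0.804, edgeR adjusted p = 0.0331). Scn10a (ENSRNOG00000032473), the other such channel, had 513, 862, 734 and 417 CPM in sham and 325, 55.3, 28.7 and 133 CPM in SNT libraries (log2 change -2.22, edgeR adjusted p = 0.0296). The groups did not overlap for either gene, and in both SNT library 1 lay nearer to sham library 4 than to the other SNT libraries. Scn11a kept its call in 2 and Scn10a in 3 of the 8 leave-one-out fits. Scn1a, a channel of large neurons, had 359, 487, 422 and 267 CPM in sham and 181, 48.8, 63.5 and 84.7 CPM in SNT libraries (log2 change -2.02). It fell in all 8 leave-one-out fits, as did Scn8a (log2 change -1.71), the channel of the nodes of Ranvier, and Scn9a (-1.13), whose loss in people abolishes pain. Scn4b (-0.81) and Scn2a (-0.46) fell as well.

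Scn3a, a channel of embryonic neurons, was the subunit that rose. It had 48.7, 52.8, 49.5 and 78.2 CPM in sham and 87.9, 74.8, 81 and 110 CPM in SNT libraries (log2 change 0.62, SE 0.177, edgeR adjusted p = 0.0289). Sham library 4 lay above SNT library 2, so the groups overlapped, and the call was kept in 4 of the 8 leave-one-out fits. Scn7a, which has the most counts of the list and is also made by glia, had 2310 to 3170 CPM in sham and 2640 to 3160 CPM in SNT libraries, with a log2 change of 0.15. The auxiliary subunits Scn3b and Scn2b did not pass, with log2 changes of 0.55 and 0.02.

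Potassium channels set the resting potential and end the action potential. Of 51 tested subunits 30 fell and 1 rose, with a median log2 change of -0.97 over the list against 0.015 over all annotated genes tested. Kcns1, a silent subunit that modifies other channels, had 113, 205, 122 and 69.2 CPM in sham and 47.2, 0.545, 1.89 and 2.69 CPM in SNT libraries (log2 change -3.29, SE 1.07, edgeR adjusted p = 0.0448). SNT library 1 was at over 10 times its group's other libraries, and the call was kept in 2 of the 8 leave-one-out fits. The log2 change was -6.45 without sham library 4 and SNT library 1. Kcna2, a shaker-type channel beside the nodes of myelinated axons, had 906, 1210, 1080 and 630 CPM in sham and 497, 341, 358 and 328 CPM in SNT libraries (log2 change -1.33, SE 0.215, edgeR adjusted p = 0.0106), with no overlap. Kcnk9 (log2 change -3.11), a leak channel, and Kcnh7 (-2.89), of the ether-a-go-go family, completed the members with the largest falls. Kcnmb4, an auxiliary subunit of the large-conductance calcium-activated channel named after its values were seen, was the member that rose, from 15.3 to 24.9 CPM in sham to 32.5 to 39.5 CPM in SNT libraries (log2 change 1.02). Of the 31 called members, 15 passed in all 8 leave-one-out fits.

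Among 6 calcium channel subunits tested, Cacna2d1 (ENSRNOG00000033531), the auxiliary subunit to which gabapentin and pregabalin bind, rose. It had 303, 354, 339 and 746 CPM in sham and 934, 1190, 1120 and 1470 CPM in SNT libraries (log2 change 1.44, SE 0.287, edgeR adjusted p = 0.012), without overlap. Its relative Cacna2d2 (log2 change -0.82) and the beta subunit Cacnb4 (-0.65) fell. Of 20 transduction and pacemaker channels tested, 8 fell. Ano3, a membrane protein of the anoctamin family made by nociceptors, had 639, 626, 603 and 316 CPM in sham and 179, 16.2, 18.4 and 33.1 CPM in SNT libraries (log2 change -3.15, SE 0.742, edgeR adjusted p = 0.0162). P2rx3, the ATP-gated channel of nociceptors, had 560, 701, 576 and 509 CPM in sham and 454, 265, 185 and 406 CPM in SNT libraries (log2 change -0.84), which did not overlap. Its call was kept in 2 of the 8 leave-one-out fits. The cation channels Trpc4 (log2 change -1.90) and Trpc5 (-1.14) also fell. The irritant channel Trpa1 and the cold channel Trpm8, named after their values were seen, did not pass with edgeR, with log2 changes of -0.97 and -0.72. Both passed with DESeq2 (adjusted p = 0.0333 and 0.0452), and without sham library 4 and SNT library 1 the edgeR log2 changes were -1.66 and -1.13 (adjusted p = 0.000388 and 0.00263).

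Receptors for itch and for substances that excite nociceptors gave 8 falls and 4 rises among 27 tested. Mrgprd, the receptor that marks nonpeptidergic nociceptors, had 14.4, 28.8, 19 and 15.1 CPM in sham and 8.47, 0.381, 0.0556 and 0.131 CPM in SNT libraries (log2 change -3.12, SE 1, edgeR adjusted p = 0.0435). In Mrgprd the groups did not overlap and SNT library 1 was the highest of its group, as it was in Mrgprx1 (log2 change -2.88), an itch receptor that fell. Both calls were kept in 2 of the 8 leave-one-out fits and lost with DESeq2 (adjusted p = 0.0745 and 0.112), and without SNT library 1 the log2 changes were -6.59 and -5.52. Reads that fit several near-identical members of the Mrg family may be left out of the counts, so single values in that family are uncertain. Htr3b, a subunit of the serotonin-gated channel, had 252, 250, 244 and 126 CPM in sham and 84.8, 0.708, 0.611 and 3.74 CPM in SNT libraries. Its log2 change was -3.29 (SE 1.24, edgeR adjusted p = 0.073) with all libraries and -7.26 (edgeR adjusted p = 1.14e-05) without sham library 4 and SNT library 1. The groups did not overlap, but SNT library 1 lay closer to sham library 4 than to the other SNT libraries. Htr3a and the nicotinic subunit Chrna3, named after their values were seen, had the same order, with log2 changes of -2.89 and -2.88 that did not pass and values of -6.26 and -6.56 that passed without sham library 4 and SNT library 1.

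Genes that mark the classes of neuron gave a like picture. Of 8 nonpeptidergic markers tested 7 fell, with a median log2 change of -1.40 over the list. Large-diameter markers had a median of -1.18, and 8 of 10 fell. Pvalb, parvalbumin, the calcium buffer of muscle spindle afferents, had between 163 and 282 CPM in sham libraries and 85.2, 3.48, 9.39 and 13 CPM in SNT libraries 1 to 4 (log2 change -3.10, SE 0.813, edgeR adjusted p = 0.0223), and Vsnl1 (-2.75), a neuronal calcium sensor, fell as well. Of 10 peptidergic markers, 3 fell and 2 rose, and without sham library 4 and SNT library 1 the counts were 8 and 2. Pan-neuronal genes gave 4 falls of 8 tested, Isl1 (log2 change -1.09), Elavl2 (-0.87), Elavl4 (-0.71) and, named after its values were seen, the vesicle calcium sensor Syt1 (-0.71), while Prph had a log2 change of 0.04 and did not pass. The median log2 change over the 8 genes was -0.64. Their summed level, to which Prph adds the most counts, ran from 7190 to 9850 CPM in sham and from 6450 to 10200 CPM in SNT libraries.

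Transcription factors that fix sensory neuron identity followed. Of 11 tested 6 fell, led by Esrrb (log2 change -2.38), Isl2 (-1.74) and Prdm12 (-1.35), and including Etv1 (-1.04). Isl2 had 64.7, 112, 82.1 and 51.5 CPM in sham and 45, 15.4, 11.2 and 21.4 CPM in SNT libraries, without overlap. Receptors for fast transmitters gave 10 falls and 2 rises of 21 tested. Gria2, the glutamate receptor subunit that limits calcium entry, had 111, 119, 112 and 72.3 CPM in sham and 48.7, 17.5, 19.6 and 26 CPM in SNT libraries (log2 change -1.89, SE 0.311, edgeR adjusted p = 0.0106). The glycine receptor subunit Glrb (log2 change -1.54) and the nicotinic subunit Chrna7 (-1.49) fell too. Of 27 genes of synaptic vesicle release, 14 fell. Vamp1, a vesicle SNARE protein, had 1450, 1750, 1560 and 907 CPM in sham and 668, 164, 187 and 246 CPM in SNT libraries (log2 change -2.16, SE 0.437, edgeR adjusted p = 0.0123). The vesicular glutamate transporter Slc17a8 (log2 change -3.02) and the priming factor Unc13c (-2.29) fell, and Syt11, the member with the most counts, had a log2 change of -0.45 that did not pass. Calcium-binding proteins with EF hands gave 8 falls and 1 rise of 16, and Necab1 (log2 change -2.50) fell beside Pvalb and Vsnl1. Of 9 carbonic anhydrases tested, Car2 (-1.97) and Car8 (-1.27) fell beside Car12, while the median log2 change of these genes was 0.14.

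Among genes of axon regrowth, of 11 regeneration-associated transcription factors tested 6 rose, and of 21 effector genes 10 rose. Jun, a partner in the AP-1 complex that drives the response of a neuron to axotomy, had 169, 182, 159 and 324 CPM in sham and 423, 632, 483 and 576 CPM in SNT libraries (log2 change 1.34, SE 0.237, edgeR adjusted p = 0.0107). Sox11, a factor needed for regrowth, had 11.9, 18.5, 16.5 and 52.9 CPM in sham and 56.4, 67.5, 60.1 and 87.2 CPM in SNT libraries (log2 change 1.44, edgeR adjusted p = 0.0287). Neither gene overlapped, but sham library 4 lay next to SNT library 1 for Sox11, whose call was kept in 2 of the 8 leave-one-out fits. Fosl1 (log2 change 1.63), another AP-1 partner, rose. Ecel1, a membrane peptidase induced in injured neurons, had 9.45, 12.5, 9.33 and 22.9 CPM in sham and 50.7, 86.3, 67 and 80.5 CPM in SNT libraries (log2 change 2.39, SE 0.296, edgeR adjusted p = 0.00996). Sprr1a (log2 change 1.92), a protein of growing axons, Fst (1.60), an activin antagonist, Gadd45a (1.26), a stress gene of injured neurons, and Fgf2 (1.12), a growth factor, rose, and so did Csf1 (1.23), the macrophage growth factor made by injured neurons, which was named after its values were seen. Fgf2 overlapped between groups, with 51.9 CPM in sham library 4 and 51 CPM in SNT library 1. Gadd45a did not, with 242 CPM in sham library 4 and 246 CPM in SNT library 1. Fgf2 kept its call in 3 and Gadd45a in 2 of the 8 leave-one-out fits. Anxa2, the effector gene with the most counts, had a log2 change of -0.03.

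Immediate early genes, which neurons switch on with activity and stress, rose in 4 of 6 tested. Fos had 20.2, 21.5, 27.3 and 44.4 CPM in sham and 75.5, 69.6, 66.1 and 47.8 CPM in SNT libraries (log2 change 1.19), without overlap. The nuclear receptors Nr4a3 (log2 change 1.27) and Nr4a1 (1.02) rose. Of 16 genes of cell death and p53 stress 6 rose, among them Bcl2l11 (log2 change 1.26), a death-promoting protein of the Bcl2 family. Neurotrophic factors and their receptors gave 3 rises and 1 fall of 18 tested. Il6r (log2 change 0.80) and Il6st (0.37), the chains of the receptor of interleukin 6, rose with Fgf2, and Ntrk3 (-0.54), the neurotrophin receptor of large neurons, fell. Lifr, with the most counts of the list, had a log2 change of 0.45 that did not pass. Of the others, Artn, Bdnf, Cntf, Cntfr, Gfra4, Igf1, Igf1r, Nrtn, Pspn, Ret and Sort1 did not pass, with log2 changes from -0.59 for Gfra4 to 0.23 for Cntfr.

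For immune genes sham library 4 often lay with the SNT libraries. Of 19 macrophage markers tested 2 (10.5%) rose, Cx3cr1 and the lysosomal protein Laptm5 (log2 change 0.83). Laptm5 overlapped between groups, with 81.5 CPM in sham library 4 and 78.5 and 73.4 CPM in SNT libraries 1 and 4. Its call was kept in 3 of the 8 leave-one-out fits. Without sham library 4 and SNT library 1 the count of macrophage markers called was 15 higher and 1 lower. In that fit 2524 of 10263 annotated genes rose and 2457 fell. Cx3cr1, the fractalkine receptor of macrophages, had 16.6, 11.3, 15.2 and 27.8 CPM in sham and 41.5, 51, 48.5 and 39.1 CPM in SNT libraries (log2 change 1.35, SE 0.242, edgeR adjusted p = 0.0109). Lyz2, lysozyme, had 546, 292, 314 and 1350 CPM in sham and 1240, 1430, 1710 and 1190 CPM in SNT libraries (log2 change 1.15, edgeR adjusted p = 0.0756). Gpnmb, a glycoprotein of lipid-laden macrophages named after its values were seen, had 54.4, 28.2, 38.3 and 662 CPM in sham and 222, 356, 594 and 119 CPM in SNT libraries (log2 change 0.72, edgeR adjusted p = 0.592). Without sham library 4 and SNT library 1 the log2 changes were 1.91 for Lyz2 and 3.15 for Gpnmb (edgeR adjusted p = 0.000392 and 0.000967). Lyz2 in sham library 4 lay within the SNT range, and Gpnmb in that library exceeded all 7 others. The summed level of the 19 markers ran from 637 to 3170 CPM in sham, with the highest value in library 4, and from 2160 to 3730 CPM in SNT libraries. The defining markers Cd68, Aif1, Csf1r and Ptprc were at 0 in all 8 libraries.

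Of 16 T and B lymphocyte markers 8 rose. Cd3e, a chain of the T cell receptor complex, had 0.332, 0.366, 0.142 and 0.782 CPM in sham and 1.39, 1.58, 2.06 and 1.64 CPM in SNT libraries (log2 change 2.0, SE 0.387, edgeR adjusted p = 0.0117), and Cd5 (1.61) and Cd6 (1.32) rose as well. Thy1, which neurons also make and which has the most counts of that list, had a log2 change of -0.57 that did not pass. The summed level of the list, in which Thy1 dominates, ran from 1080 to 1700 CPM in sham and from 769 to 1290 CPM in SNT libraries. Complement genes gave 6 rises of 19 tested. C3, the central complement protein, had 34.1, 23.5, 21.7 and 48.7 CPM in sham and 94.2, 157, 140 and 158 CPM in SNT libraries (log2 change 2.10, SE 0.268, edgeR adjusted p = 0.0104). Its receptor C3ar1 (log2 change 1.28) and the protease C1r (1.06) rose, and Cd59, a complement inhibitor with the most counts, had a log2 change of -0.20. No library overlapped between the groups for Cd3e or C3.

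Interleukin and tumour necrosis factor signalling gave 21 rises of 33 tested, with a median log2 change of 0.80. Il1rl1, the receptor of interleukin 33, had 8.62, 6.47, 4.77 and 7.49 CPM in sham and 16.8, 18.2, 19.9 and 13 CPM in SNT libraries (log2 change 1.31, SE 0.204, edgeR adjusted p = 0.0106), without overlap. The interleukin 1 antagonist Il1rn (log2 change 1.81) and the decoy receptor Il1r2 (1.39) rose, Il1rn with 16.6 CPM in SNT library 3 against 3.73 to 5.17 CPM in the other SNT libraries. Of 14 chemokines and their receptors 3 rose, the leukocyte receptors Cxcr6 (log2 change 1.81) and Cx3cr1 among them, and the chemokine Ccl27 (-0.64), named after its values were seen, fell. The scavenger receptor Ackr3 (0.38), with the most counts, did not pass. Of 13 toll-like receptor genes 5 rose, among them Tlr7 (log2 change 1.18), a sensor of RNA, the inhibitor Irak3 (1.01) and the adaptor Myd88 (0.61). Of 24 interferon-stimulated genes 7 rose and 2 fell, with the guanylate-binding proteins Gbp2 (1.11), Gbp5 (1.01) and Gbp4 (0.93) leading and Ifi27 (-0.71) falling. Of 10 neutrophil genes Mmp9 was the 1 that rose, and the median log2 change over the list was -0.05. The summed level of the list was 22.2 to 35.9 CPM in sham and 26.8 to 187 CPM in SNT libraries. Mmp9 alone had 164 CPM in SNT library 3. The mast cell enzyme Hdc had a log2 change of -0.65 that did not pass.

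Glial and stromal genes moved as well. Schwann cell and myelin genes gave 10 rises of 17 tested. Mag, the myelin-associated glycoprotein, had 26.4, 23.1, 33.1 and 38.1 CPM in sham and 36.8, 137, 107 and 71 CPM in SNT libraries (log2 change 1.54, SE 0.348, edgeR adjusted p = 0.0146), with SNT library 1 inside the sham range. Erbb3 (log2 change 0.98), the neuregulin receptor, and Sox10 (0.97), the glial master regulator, rose in all 8 leave-one-out fits, and Prx (0.59), the member with the most counts, did not pass. The summed level of the list ran from 5200 to 6650 CPM in sham and from 6220 to 10500 CPM in SNT libraries, while the myelin genes Mbp and Pmp22 were not counted. Satellite glial markers split, with 5 rises and 4 falls of 11. Erbb3 and Sox10 are members of both lists and are among these rises. The proteoglycan Bcan had 84, 156, 89.7 and 76.7 CPM in sham and 68.3, 19, 28.8 and 42.1 CPM in SNT libraries (log2 change -1.36, edgeR adjusted p = 0.0248), with no overlap and SNT library 1 just below the lowest sham library. Entpd2 (log2 change 1.27), an enzyme that breaks down extracellular ATP, rose in all 8 leave-one-out fits, and the lipase Pla2g7 (-1.32) fell, and Apoe, with 7670 to 11800 CPM in sham and 5940 to 8100 CPM in SNT libraries, had a log2 change of -0.33 that did not pass. The summed level of the satellite list ran from 11800 to 15600 CPM in sham and from 10300 to 12400 CPM in SNT libraries, with Fabp7, Kcnj10 and Glul not counted.

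Of 33 fibroblast and collagen genes 17 rose and 2 fell. Col3a1, a fibrillar collagen, had 3180, 2100, 2400 and 3820 CPM in sham and 4510, 8080, 5950 and 4820 CPM in SNT libraries (log2 change 1.02, SE 0.249, edgeR adjusted p = 0.0178), without overlap. Postn (log2 change 1.79), periostin of healing tissue, and Col27a1 (1.33) rose, and Col25a1 (-1.63), a membrane collagen of neurons, fell. Postn had 107 CPM in sham library 4 against 18.7 to 32.2 CPM in sham libraries 1 to 3. Of 24 matrix proteases and their inhibitors 7 rose and 1 fell, with Mmp16 (log2 change 1.22), Mmp19 (1.21) and the inhibitor Timp3 (0.67) among the rises beside Mmp9. Endothelial and mural markers gave 5 rises of 18, led by the muscle filament Des (log2 change 1.06), which was also the 1 of 5 intermediate filaments that rose, Podxl (0.71) and the pericyte proteoglycan Cspg4 (0.68). Among 9 link proteins and lecticans tested, Has1 (log2 change 1.62), which makes hyaluronan, rose, Bcan, Hapln1 and, named after its values were seen, Hapln2 (-0.81), a link protein of nodes of Ranvier, fell, and Tnc (-0.29), with the most counts, did not pass. Cell cycle genes gave 5 rises of 33 tested (15.2%), near the 15.3% of all annotated genes that rose. They gave 25 rises without sham library 4 and SNT library 1, where 2524 of 10263 annotated genes rose. With DESeq2 12 of the 33 were called, and with 1 library left out 2 to 22. The cyclins that govern entry into division, Ccnd1 (log2 change 1.11), Ccnd2 (1.06) and Ccnd3 (0.94), led the 5, and Ccnd1 had 140, 95.3, 123 and 197 CPM in sham and 205, 388, 370 and 238 CPM in SNT libraries, which did not overlap.

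Axon guidance genes changed in 23 of 47 tested, 17 up and 6 down. Plxnb1, a semaphorin receptor, had 61, 65.9, 64.5 and 66.9 CPM in sham and 91.1, 192, 148 and 136 CPM in SNT libraries (log2 change 1.13, SE 0.189, edgeR adjusted p = 0.0106). The secreted semaphorin Sema3b (log2 change 0.89) rose with Draxin, and Ntng1 (-1.71), a netrin-related adhesion protein, fell. Of 34 tubulin and motor genes 9 fell and 2 rose, with Tuba8 (log2 change -2.02), the dynein chains Dync1i1 (-1.09) and Dynlt3 (-0.97) and the microtubule protein Map1b (-0.76) falling. G protein genes gave 5 rises and 6 falls of 24, and the regulators Rgs10 (log2 change -1.54) and Rgs6 (-1.52) and the alpha subunit Gna14 (-1.27) fell, while Gnai2 (0.36) did not pass.

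Subunits of the mitochondrial respiratory chain and ATP synthase gave 30 falls of 53 tested. The falls were small, with a median log2 change of -0.53 over the list and -0.87 for Cox7b, the largest. Ndufs1, a core subunit of complex I, had between 356 and 478 CPM in sham and between 188 and 342 CPM in SNT libraries (log2 change -0.85, SE 0.192, edgeR adjusted p = 0.0146), without overlap. It passed in all 8 leave-one-out fits, as did 3 of the 30 called subunits in all, while 21 of the 30, Cox7b and Ndufv2 (-0.79) among them, kept their call in 2 or fewer of these fits. Atp5b, with the most counts, had a log2 change of -0.38 that did not pass. Without sham library 4 and SNT library 1, 51 of the 53 fell, against 2457 of 10263 annotated genes. Of 15 heat shock proteins 2 rose, Hspb7 (log2 change 1.14) and Hspa2 (1.10), and 4 fell, including Hsp90aa1 (-0.70), while Hsp90ab1 (-0.23) did not pass. The unfolded protein and ATF4 list gave 6 rises and 3 falls of 21, with the cystine transporter Slc7a11 (log2 change 1.12) and the membrane-bound factors Creb3l2 (0.79) and Creb3l1 (0.51) rising and the chaperone Hspa5 (-0.10) not passing. Of 20 cholesterol genes 1 rose and 2 fell, the synthetic enzymes Cyp51 (log2 change -0.53) and Sqle (-0.52).

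Markers of other tissues were read in the same libraries. The beta-globin genes Hbb (log2 change -1.50) and Hbb-b1 (-1.57) fell, and so did Alas2 (-1.49), the first enzyme of haem synthesis in red cells. Reads that fit both near-identical globin copies may be left out of their counts. Of the 9 blood, muscle and central myelin markers tested 4 fell, while the median log2 change over the list was 0.87. Hbb had 530, 1360, 888 and 521 CPM in sham and 473, 318, 104 and 276 CPM in SNT libraries, with no overlap. Ckm, the creatine kinase of skeletal muscle named after its values were seen, had 52.4, 17.7, 8.34 and 7.23 CPM in sham and 80.1, 6.37, 32 and 54.6 CPM in SNT libraries and did not pass. The summed level of the blood, muscle and central myelin list ran from 711 to 1720 CPM in sham and from 227 to 805 CPM in SNT libraries, and the part of blood or muscle in the other results was not tested.

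**Figure D3:**
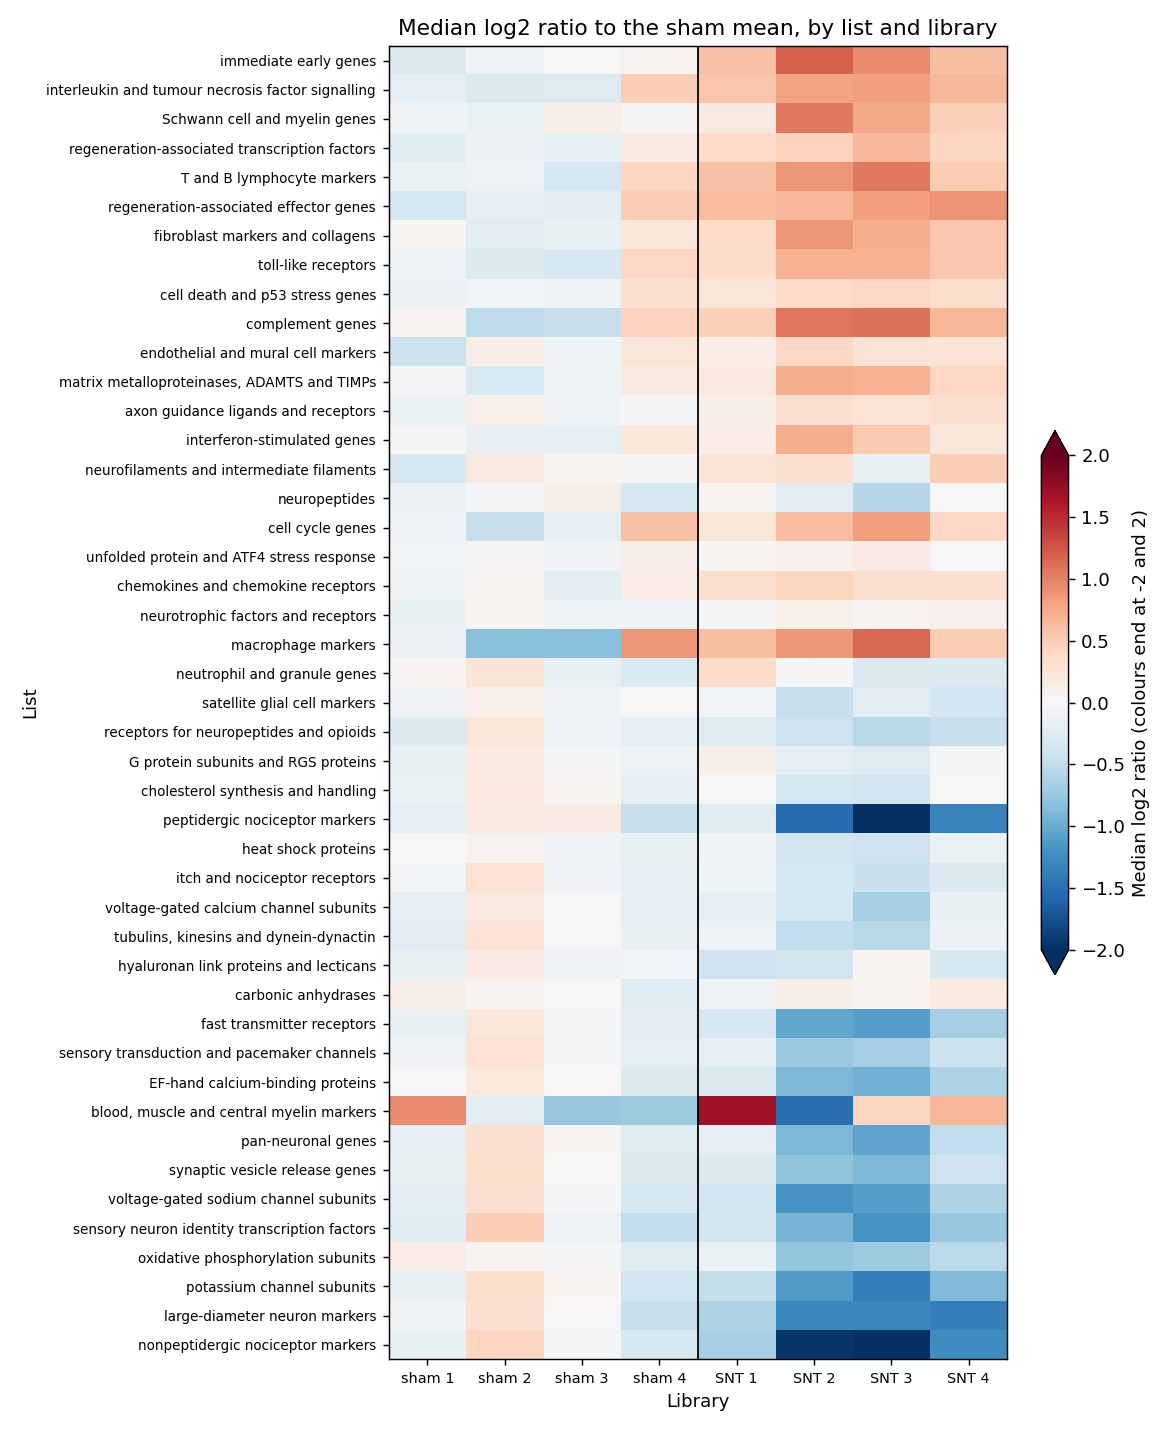
Median over the tested members of each list of the log2 ratio of the level in a library to the mean of the 4 sham libraries, with 0.5 CPM added to both, for each of the 8 libraries. Columns for SNT libraries 2 to 4 are the most strongly coloured, SNT library 1 is paler, and sham library 4 has the colours of the SNT group in the rows of macrophage markers, cell cycle genes and regeneration effectors.

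Sham library 4 and SNT library 1 did not stand between the groups by the same amount in every list of genes. The position of each was read on 1589 annotated genes that passed with a change of 2-fold or more in the other 6 libraries, as a percentage of the distance on the log2 scale from the mean of those sham libraries to the mean of those SNT libraries. Neither library was used to choose these genes. SNT library 1 stood at a median of 51%, at 69.8% over the 748 genes that rose and at 41.4% over the 841 genes that fell. Sham library 4 stood at 39.5%, at 61% over the rises and at 31.3% over the falls. Over 15 macrophage markers the medians were 86.2% for SNT library 1 and 103% for sham library 4, and over 16 cell cycle genes 56.9% and 93.9%. Over 19 interleukin and tumour necrosis factor genes they were 83.8% and 75%, and over 11 regeneration effectors 78.7% and 75.2%. Over 28 potassium channel subunits they were 40.9% and 27.8%, over 6 nonpeptidergic markers 31.9% and 20%, over 9 peptidergic markers 21.9% and 29.8%, and over 7 Schwann cell genes 35.9% and 25.1%. Both libraries lay nearer to the SNT mean in the immune and regrowth lists than in the list of potassium channels. Called members of the former mostly rose and those of the latter mostly fell, and all rises and all falls differed the same way. In these lists the kind of gene and the direction of change on the log2 scale cannot be told apart. Schwann cell genes, whose called members rose, had the low values given above. The difference between lists was not tested.

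**Figure D4:**
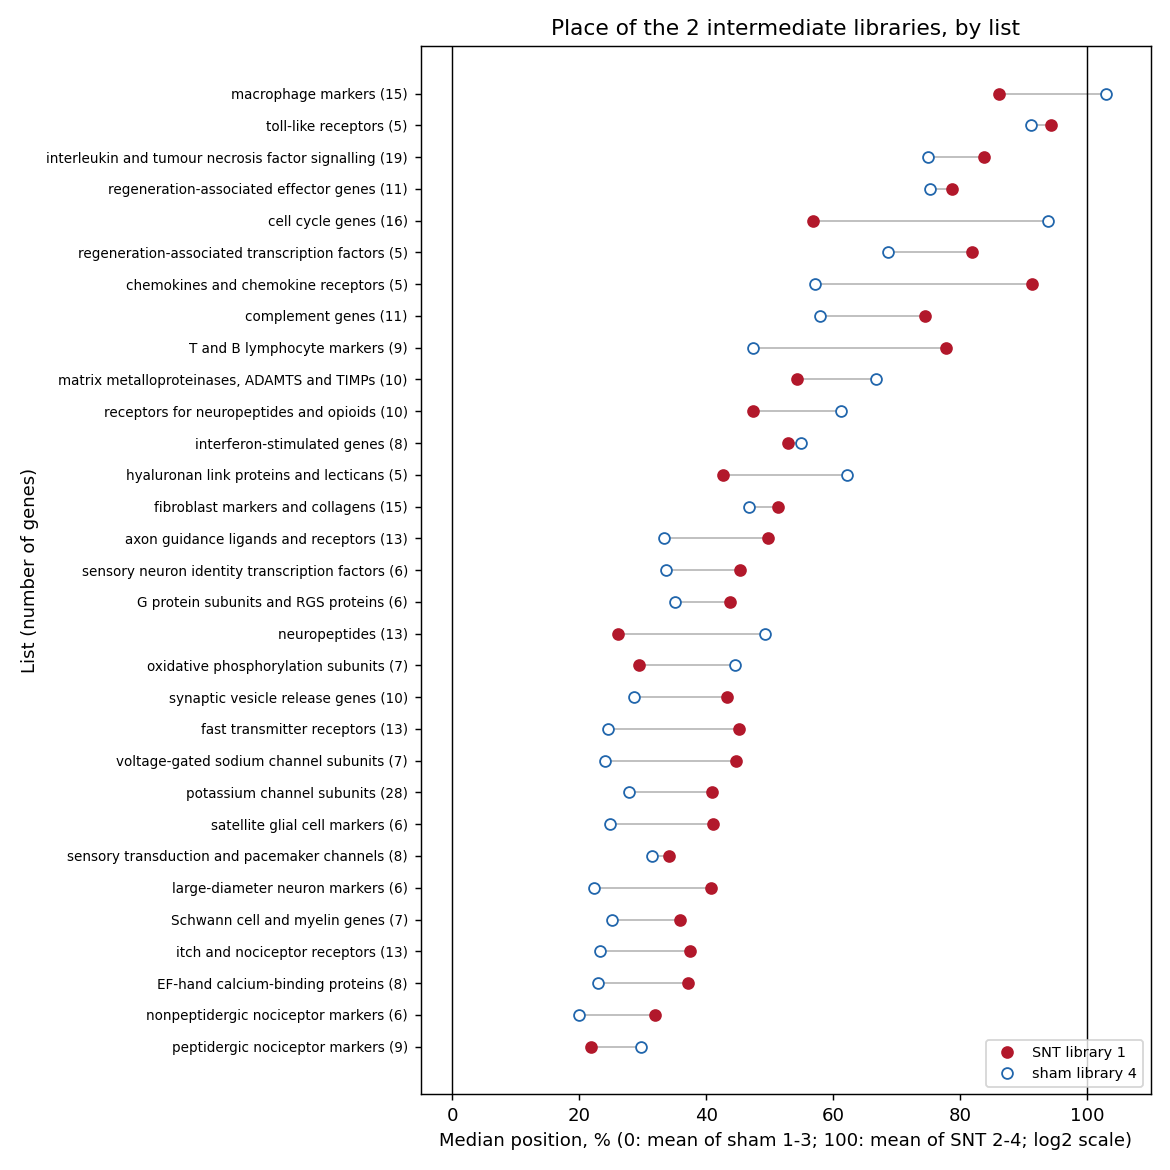
Median position of SNT library 1 (filled) and sham library 4 (open) on the scale from the mean of sham libraries 1 to 3 (0%) to the mean of SNT libraries 2 to 4 (100%), for lists with at least 5 genes called in those 6 libraries at 2-fold or more. Macrophage markers lie at 86.2% and 103%, and nonpeptidergic nociceptor markers at 31.9% and 20%.

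The rat change was set beside spared nerve injury (SNI) in 2 mouse strains, where branches of the sciatic nerve were cut and another was spared, with 4 SNI and 6 sham BALB/c and 5 SNI and 5 sham B10.D2 libraries of both sexes, from ganglia of other levels, taken later, with ribosomal RNA removed and 1 animal per library. These conditions differ together with the species and cannot be told apart. Of 8791 genes joined by symbol, the change in rat differed from the mean change of the strains for 3394 (38.6%, edgeR interaction test), 1614 with a more positive and 1780 with a more negative value in rat. The fit estimates 1 spread for both species, which makes the rat term liberal, and limma voom with a weight per species called 2940. Oprm1 had log2 changes of -0.07 and -0.05 in BALB/c and B10.D2 mice, and the difference was -2.09 (SE 0.285, edgeR adjusted p = 2.75e-05). Scn11a had -0.07 and 0.04, with a difference of -2.72 (SE 0.559, edgeR adjusted p = 0.000692), and Mag -0.05 and 0, with a difference of 1.60 (SE 0.326, edgeR adjusted p = 0.000633). Sprr1a went the other way, with 4.92 and 5.07 in the strains and a difference of -3.05 (SE 0.619, edgeR adjusted p = 0.000609). For Sox11 the strain changes were 1.54 and 0.98 and the difference from rat was 0.19 (SE 0.335, edgeR adjusted p = 0.672). By list, the difference passed with a more negative rat value for 29 of 53 potassium channel subunits, 8 of 13 sodium channel subunits and 39 of 56 respiratory chain subunits, and with a more positive rat value for 12 of 16 Schwann cell genes. The median log2 changes of 19 macrophage markers were 0.76 in rat and 0.52 and 0.42 in the 2 strains.

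**Figure D5:**
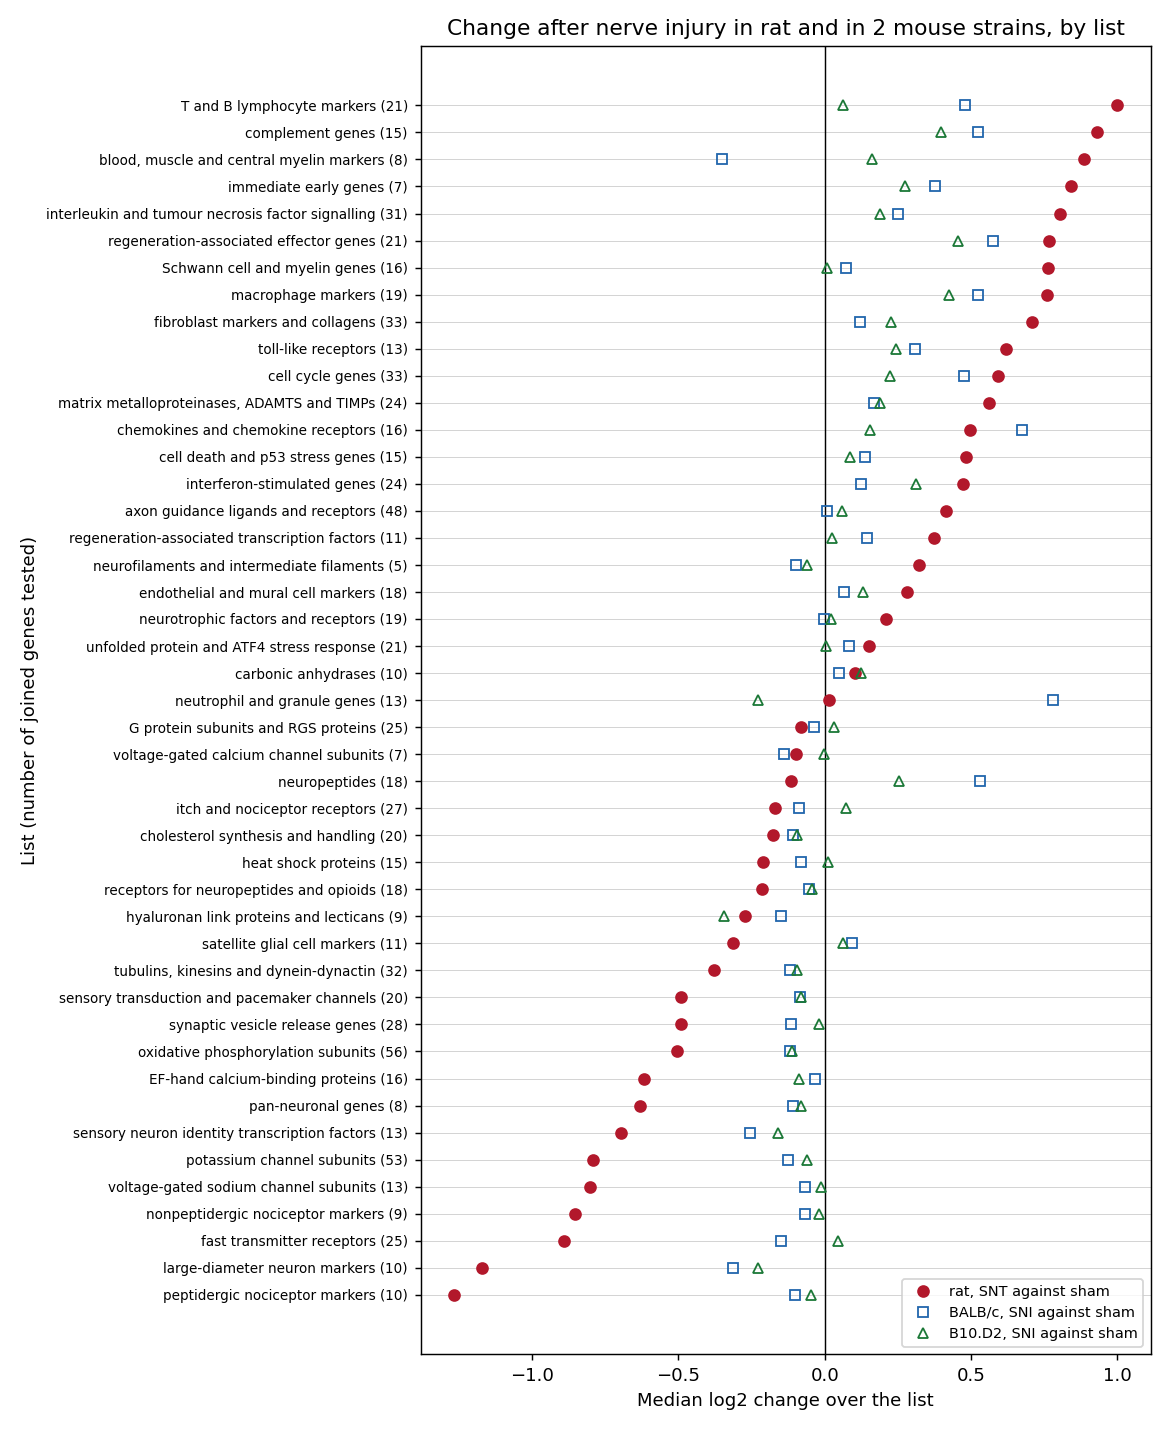
Median log2 change after nerve injury over the joined members of each list, in rat (SNT against sham, filled circles), BALB/c (SNI against sham, open squares) and B10.D2 (SNI against sham, open triangles), all from 1 joint fit. Potassium channel subunits lie at -0.79 in rat and at -0.13 and -0.06 in the strains, and macrophage markers at 0.76, 0.52 and 0.42.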

How the data were processed

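The 8 rat libraries were made from polyadenylated RNA with a strand-specific dUTP protocol and paired-end sequencing. The deposited values are raw counts of reads per gene, obtained by the authors with STAR alignment to the rn6 genome (Rnor_6.0) and HTSeq counting. Annotated genes and assembled long noncoding RNAs are counted together. Tool versions are not given in the sources used here. A deposited table of the authors' own comparison was used for gene symbols alone, and its fold changes and p-values were not used. Genes at 0 in all 8 libraries were treated as not counted. The paper used uniquely mapped read pairs, so reads that fit several near-identical genes may be left out. Single values of beta-globins, Mrg receptors, guanylate-binding proteins and lysozyme are therefore uncertain. No rat sequence was used here.

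Annotated genes and assembled long noncoding RNAs were fitted together with edgeR 4.0.16 in R 4.3.3. The fit used filterByExpr, TMM and the quasi-likelihood F test, with surgery as the single term. P-values were adjusted by the Benjamini-Hochberg method over 13690 features. The method was tested on simulated data for the rat comparison with 13690 features, where 68 of 100 genes changed 2-fold and 90 of 100 changed 4-fold were called. Among the unchanged features 10 were called. Genes were simulated independently, so no simulated library stood between the groups as sham library 4 and SNT library 1 do. Levels are CPM with TMM. Library totals of 11.95 M to 17.89 M set a floor of 3 counts at 0.168 to 0.251 CPM, which covers counting error only. Mouse counts, deposited by the authors as raw counts, were joined by symbol and fitted with the rat counts in edgeR with a sex term for the mice. DESeq2 1.42.0 and limma 3.58.1 served the alternatives.

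Members and lists were chosen with earlier results of these data known. Genes were named by rule. These were the 10 largest rises and the 10 largest falls among called genes without overlap whose mean reached 1 CPM, all tested neuropeptides, sodium channel subunits and neurotrophic members, and in each other list the 3 called members with the largest change and the member with the most counts. Genes outside the rule are said to be so. Each sample took its group from its labels. The alternatives were other size factors, DESeq2, other filters on low counts, annotated genes alone, a block on the number in the titles, each library left out, and sham library 4 and SNT library 1 left out together. Some genes that the rule names are not reported here.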

Additional observations from a re-analysis of the deposited data

Results flagged for a closer look

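A library was picked out where it lay far from the other 3 of its group by Dixon's criterion at its 95% level, and chance picks out about 1 in 20 groups. In sham library 4 these were Ano3 at 316 CPM, Cacna2d1 at 746 CPM, Cck at 10.5 CPM, Gal at 284 CPM, Gpnmb at 662 CPM, Htr3b at 126 CPM, Jun at 324 CPM, Scn3a at 78.2 CPM, Sox11 at 52.9 CPM and Vip at 41.4 CPM. Each of these values except that of Gpnmb lay on the side of the SNT libraries and short of their group mean, and Gpnmb lay above all of them. In SNT library 1 these were Ano3 at 179 CPM, Hapln1 at 13.2 CPM, Htr3b at 84.8 CPM, Kcns1 at 47.2 CPM, Mrgprd at 8.47 CPM, Pvalb at 85.2 CPM, Scn11a at 182 CPM and Vamp1 at 668 CPM, each on the side of the sham libraries. In SNT library 3 it was Mmp9 at 164 CPM, and in sham library 2 it was Bcan at 156 CPM, away from the SNT libraries. What sets these libraries apart was not tested.

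The rat change differed from the mean of the mouse strains, by the edgeR interaction test, for Mag (difference 1.60), Oprm1 (-2.09), Scn11a (-2.72) and Sprr1a (-3.05), in log2 units, with species, surgery, ganglion level, time, RNA fraction and pooling differing together.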

How the results depend on the processing

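The counts of called annotated genes stayed within 1.5 times of 3118 with other size factors (3155), DESeq2 (3528), no filter on low counts (2962), at least 10 counts in every library (2989) and annotated genes alone (3431). With DESeq2 the calls of 40 of 46 lists stayed within 1.5 times, those of 5 grew by more (cell cycle 5 to 12, macrophage 2 to 5, intermediate filament 1 to 2, neurotrophic 4 to 7 and toll-like receptor 5 to 8) and neutrophil genes went from 1 to 0, where the adjusted p of Mmp9 was not given. With sham library 3 left out, 38 lists had fewer calls by that measure. Leaving out 1 library gave 1166 to 4165 calls, 546 to 2190 higher and 612 to 2215 lower. Leaving out sham library 4 and SNT library 1 gave 4981 (2524 higher, 2457 lower), and 916 of the 3118 changed 2-fold or more. Titles share a number between 1 sham and 1 SNT library. Deviations of same-numbered libraries from their group means had correlations of 0.0493, -0.234, -0.0855 and -0.0786. The labels do not say what the numbers stand for, and 1 pair per number cannot show whether they pair the libraries. With the replicate block on that number 2053 genes passed (1026 higher, 1027 lower). Libraries 1 and 2 of each group alone gave 166 calls (138 higher, 28 lower), and libraries 3 and 4 gave 127 (15 higher, 112 lower), with 2 samples a group. The count for rat against mouse stayed within 1.5 times of 3394 in every alternative run, from 2564 against BALB/c alone to 4686 without sham library 4 and SNT library 1.

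Among genes that did not pass, the sign of the log2 change turned for 11. With 1 library left out, it ran from -0.375 to 2.901 for Acan, -0.09 to 0.045 for Anxa2, -0.432 to 0.065 for Bdnf, -0.859 to 0.12 for Hdc, -0.028 to 3.075 for Mmp13, -0.022 to 0.308 for Nts, -0.04 to 0.17 for Prph, -0.199 to 0.078 for Pspn, -0.093 to 0.22 for Scn2b and -0.027 to 0.151 for Sort1. With libraries 1 and 2 of each group alone it was -0.542 for Acan, 0.032 for Anxa2, 0.188 for Bdnf, -0.047 for Cartpt, 0.026 for Hdc, -0.714 for Mmp13, 0.229 for Pspn and -0.083 for Sort1, and with libraries 3 and 4 alone -0.019 for Prph. Without sham library 4 and SNT library 1 it was -0.03 for Prph and -0.202 for Scn2b. The cause was not tested.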
